A study of Drosophila melanogaster with 4 samples.

Results

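The Enhancer of split complex is a cluster of small genes on the right arm of chromosome 3 (3R) of Drosophila melanogaster. Its 10 genes taken here are the 7 basic helix-loop-helix (bHLH) genes E(spl)mdelta-HLH, E(spl)mgamma-HLH, E(spl)mbeta-HLH, E(spl)m3-HLH, E(spl)m5-HLH, E(spl)m7-HLH and E(spl)m8-HLH, and the 3 Bearded family genes E(spl)malpha-BFM, E(spl)m4-BFM and E(spl)m6-BFM. The regions described are those enriched for H3K4me1, histone H3 carrying 1 methyl group on lysine 4, that overlap the span of these genes plus 10 kb on each side. That window runs on 3R from 21813343 to 21876730 in FlyBase release 5, and the genes themselves from 21823343 to 21866730, after their positions were moved from release 6 by a constant. It held 2 of the 8219 regions of the authors' combined list. Replicate 1 had 2 of its 7601 regions there, and replicate 2 had 3 of its 7401. The locus was chosen by its H3K4me1 in these same lists, so its coverage, region widths and scores are given as a description, without a test.

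Chromatin immunoprecipitation and sequencing was done on whole embryos of the wild-type strain Oregon-R-modENCODE, aged 14 to 16 h and fixed with 1.8% formaldehyde. The antibody was ab8895, from what the labels call new lot 2. There were 2 ChIP libraries and 2 input libraries, and input values were not analysed here. The labels do not say whether the replicates came from separate embryo collections, so their spread may be technical. The experiment number in the names of the replicate lists is the same, although the labels number the libraries differently, so which list is called replicate 1 follows the repository's record. Whole embryos mix many cell types, and a listed region does not show which of them carry the mark.

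Enhancer of split genes are direct targets of the Notch pathway. When a ligand of the Delta and Serrate type binds the receptor Notch on a neighbouring cell, the freed intracellular part of Notch joins the DNA-binding protein Su(H) and switches these genes on. The bHLH genes encode repressors that recruit the corepressor Groucho and hold cells back from a neural fate, while Bearded family proteins inhibit Neuralized, a ubiquitin ligase that ligands need in order to signal. H3K4me1 is known from enhancers and from the sequence beside active promoters.

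In the combined list 1 enriched region of 50.1 kb, on 3R from 21820768 to 21870907, enclosed the whole complex. Replicate 1 had 1 region over the same sequence, from 21820790 to 21870856 (50067 bp). Replicate 2 had a region of 46865 bp, from 21820933 to 21867797, and after a break of 189 bp a second of 2830 bp, from 21867987 to 21870816. All 3 lists thus marked nearly the same stretch, and the replicate regions covered 99.9% and 99.1% of the combined domain.

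**Figure D1:**
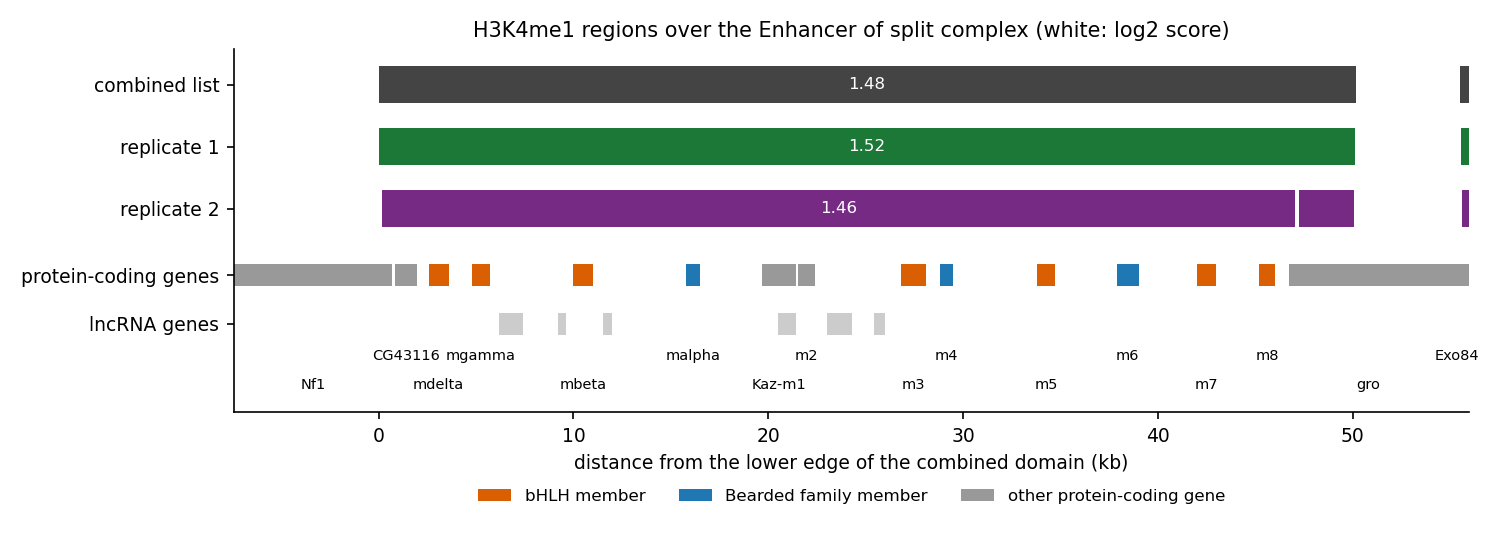
Enriched regions in the combined list and in replicates 1 and 2 over the window, with protein-coding and long noncoding RNA (lncRNA) genes below. The x axis is the distance in kb from the lower edge of the combined domain, bars are drawn to scale and cut at the window's ends, white numbers are log2 scores of the domain, and gene names are shortened (m8 for E(spl)m8-HLH; m2 is a Bearded family gene outside the 10 members). The domain spans all 10 members in each list, and replicate 2 has a break of 189 bp inside gro, 1067 bp beyond m8.

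Of the 63388 bp of the window, 79.7% was covered in replicate 1 and 79.0% in replicate 2, or 79.3% ± 0.489 (SD, n = 2). The combined list covered 79.9%. Over the whole of 3R replicate 1 covered 31.5%, replicate 2 covered 29.4% and the combined list covered 35.3%. The uncovered part of the window lay outside the complex. In the combined list it was made of 7425 bp on the lower side and 5334 bp on the upper side, where "lower" and "upper" refer to position on 3R.

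Each of the 10 members lay wholly inside 1 region in all 3 lists. Among the 3387 protein-coding genes of 3R, 26.3% lay wholly inside 1 region in the combined list, 23.4% in replicate 1 and 22.8% in replicate 2. The members are short, from 676 to 1305 bp, and short genes fit inside a region more easily. Of the 702 protein-coding genes in that range of lengths, 43.4%, 40.6% and 41.2% lay wholly inside a region. For regions of at least 20 kb the share of all protein-coding genes was 2.8%, 1.98% and 1.45%, while all 10 members lay inside such a region in each list. Both ends of the gene lay in a region for 10 of 10 members, against 34.6%, 31% and 29.8% of protein-coding genes. The rule that chose the locus used these regions, so nothing is read from the contrast.

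The bHLH members differed in how far inside the domain they sat. The lowest member is E(spl)mdelta-HLH (1013 bp), which began 2575 bp from the lower edge of the combined domain. In replicate 1 this distance was 2553 bp, and in replicate 2 it was 2410 bp. E(spl)mgamma-HLH (911 bp) lay 4.80 kb and E(spl)mbeta-HLH (978 bp) 10.0 kb from that edge in the combined list. E(spl)m3-HLH, at 1305 bp the longest member, lay deepest, with 22.1 kb to the nearest edge in the combined list, 22.0 kb in replicate 1 and 18.9 kb in replicate 2. Beyond it, the distance to the upper edge of the combined domain was 15.4 kb for E(spl)m5-HLH (882 bp), 7.17 kb for E(spl)m7-HLH (982 bp) and 4.18 kb for E(spl)m8-HLH (769 bp), the gene in which the classical Enhancer of split mutation lies. In replicate 2 the break brought the end of the main region to 1067 bp from E(spl)m8-HLH, so that this gene was the nearest member to an edge in that list, while in replicate 1 the distance was 4126 bp.

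The Bearded family members are interspersed with the bHLH genes. E(spl)malpha-BFM, at 676 bp the shortest member, lay 15.8 kb from the lower edge in the combined list and in replicate 1, and 15.7 kb in replicate 2. E(spl)m4-BFM (759 bp) lay 20.6 kb from the upper edge in the combined list and in replicate 1, against 17.5 kb in replicate 2. E(spl)m6-BFM (1137 bp) lay 11.1 kb from that edge in the combined list and in replicate 1, and 8.03 kb in replicate 2. No member of either class came within 1 kb of an edge in any list.

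Much of the marked sequence lies outside the protein-coding genes. Members are spaced 693 bp (E(spl)m3-HLH to E(spl)m4-BFM) to 10254 bp apart (E(spl)malpha-BFM to E(spl)m3-HLH), with a median of 3175 bp. Together they measure 9412 bp, or 18.8% of the combined domain. With the others, 34.7% of the domain lies in protein-coding genes, while 71.0% of 3R does. Neither share counts lncRNA genes. No replicate list has a break in the stretches between members.

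The longest of these stretches holds the other genes of the complex. Kaz-m1 (formerly E(spl)m1), which encodes a Kazal-type protease inhibitor and belongs to neither class, was covered to 100.0% in each list. E(spl)m2-BFM, a further Bearded family gene, was likewise covered to 100.0%. At the lower end CG43116 lay inside the domain, 833 bp from the combined edge and 668 bp from that of replicate 2. With these 3 genes and the 10 members, 13 protein-coding genes lay wholly inside the combined domain, as did 6 lncRNA genes: lncRNA:CR45037, lncRNA:CR45038, lncRNA:CR45039, lncRNA:CR45040, lncRNA:CR43643 and lncRNA:CR43644.

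Both edges of the domain fall inside neighbouring genes. On the lower side it took in 692 bp at the upper end of Nf1, which encodes the Drosophila neurofibromin, a Ras GTPase-activating protein. On the upper side it ended within gro, which encodes Groucho, the corepressor used by the bHLH proteins of the complex. Regions covered 42.2% of the 8176 bp of gro in the combined list, 41.6% in replicate 1 and 38.8% in replicate 2. The 189 bp break of replicate 2 lies inside gro as well, 340 to 528 bp from the end that faces E(spl)m8-HLH, and replicate 1 has no break there. Part of the difference between replicates in gro is this break. A gap of 5.33 kb then separates the domain from the next combined region, which covered 68.8% of Exo84, a subunit gene of the exocyst (66.5% in replicate 1, 63.9% in replicate 2).

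At the limit of the 10 kb flank, the next region on the upper side entered the window and was therefore counted, with 489 bp inside in the combined list and 431 and 365 bp inside in replicates 1 and 2. On the lower side the nearest region ended 2778 bp, 2777 bp and 2842 bp short of the window and was not. The 2 lists with 2 regions and the 1 with 3 thus differ by the break in gro alone.

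The deposited score of each region is a log2 ratio whose terms the files do not name. For the domain it was 1.52 in replicate 1 and 1.46 in the main region of replicate 2, or 1.49 ± 0.042 (SD, n = 2), and 1.48 in the combined list. On a linear scale these scores are ratios of 2.87, 2.76 and 2.80. The small piece beyond the break in replicate 2 had a score of 1.13. The 2 replicate scores of the domain differed by 0.06.

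The whole numbers behind each score can be recovered in lowest terms, which need not be the counts themselves. In replicate 1 the score of the domain rested on a ratio of 22333 to 6383, in replicate 2 on 13466 to 5569, and in the combined list on 18209 to 6156. Taken as counts, they give exact 95% intervals of 1.48 to 1.56 in replicate 1, 1.42 to 1.51 in replicate 2 and 1.44 to 1.53 in the combined list. For the small piece of replicate 2, at 579 to 301, the interval was 0.93 to 1.34, which lies below that of the main region in the same library. The recovered numbers depend on a constant chosen for each list, and what they count is not stated. True counts may be multiples of them, which would narrow the intervals, so an overlap of intervals is not read as agreement. The intervals cover counting error only. Multiplied by 2, the combined numbers are 36418 and 12312, which are 0.11% and 0.482% above the sums over the replicate regions of the domain, 36378 and 12253.

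By width the domain had rank 1 among the 7601 regions of replicate 1. Among the 7401 of replicate 2 it had rank 2, and among the 8219 combined regions rank 6. On 3R it had rank 1 in either replicate and rank 3 in the combined list. A wide region that a replicate list breaks is ranked there by its pieces. The combined region of 56411 bp on 3R, wider than the domain, was in 2 pieces in either replicate. By score the rank of the domain was 232 in replicate 1, 275 in replicate 2 and 169 for the combined region. Against regions of at least 20 kb its score had rank 41 of 127 (replicate 1), 42 of 101 (replicate 2) and 40 of 194 (combined). The median score of such regions was 1.41, 1.41 and 1.26 in the same order. In each list the domain thus ranked higher by breadth than by score.

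**Figure D2:**
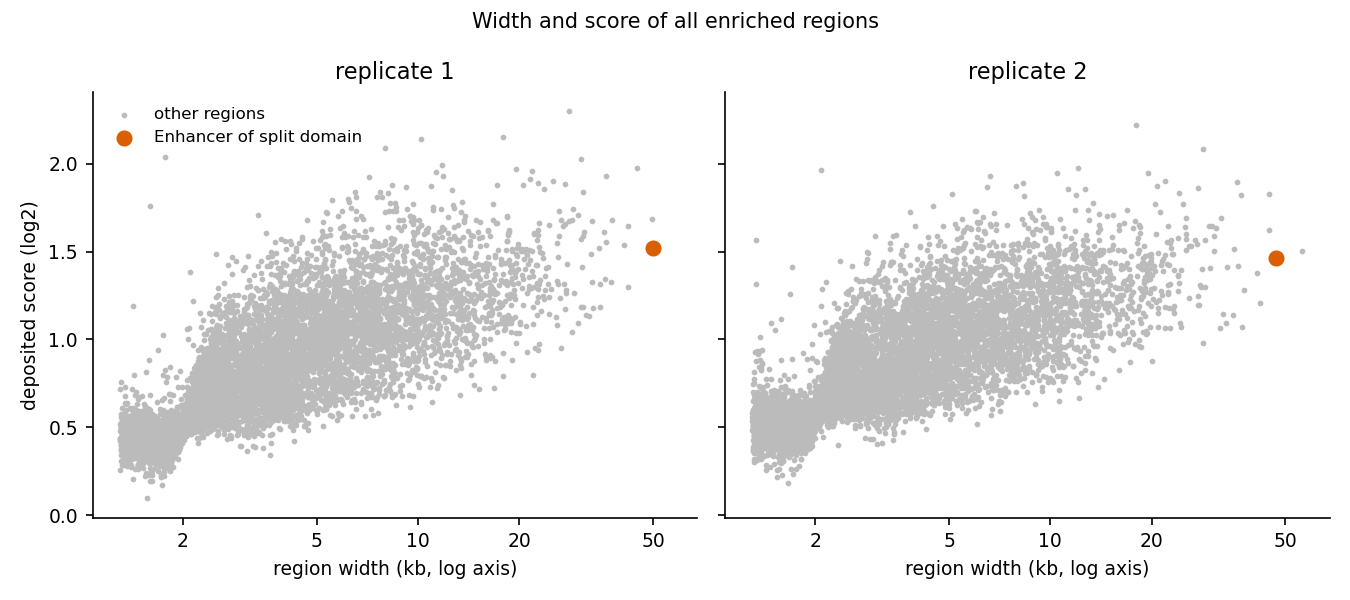
Width in kb (log axis) against deposited log2 score for every enriched region of replicate 1 (left) and replicate 2 (right), with the Enhancer of split domain as the large orange point. The domain is at the right end of both clouds (rank 1 and rank 2 by width), at a score of 1.52 and 1.46, below the highest points.

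The outer edges of the domain, taken over all its pieces, lay close together in both replicates. They belong to the same regions that the choice of the locus used, so they are given as a description. The outer lower edge differed by 143 bp and the outer upper edge by 40 bp. In replicate 2 that upper edge is the end of the small piece beyond the break. The main region of replicate 2 ended at 21867797, against 21870856 in replicate 1. Among the 194 combined regions of at least 20 kb, all found in both replicates, the median differences were 162 bp and 161 bp. Of these regions 47.4% had a lower edge, and 16.5% an upper edge, at least as close as that of the domain. In 13 of the 194 (6.7%), the domain included, both edges were at least as close. The lower edges were thus about as close as the median wide region's, and the upper edges closer than the median.

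**Figure D3:**
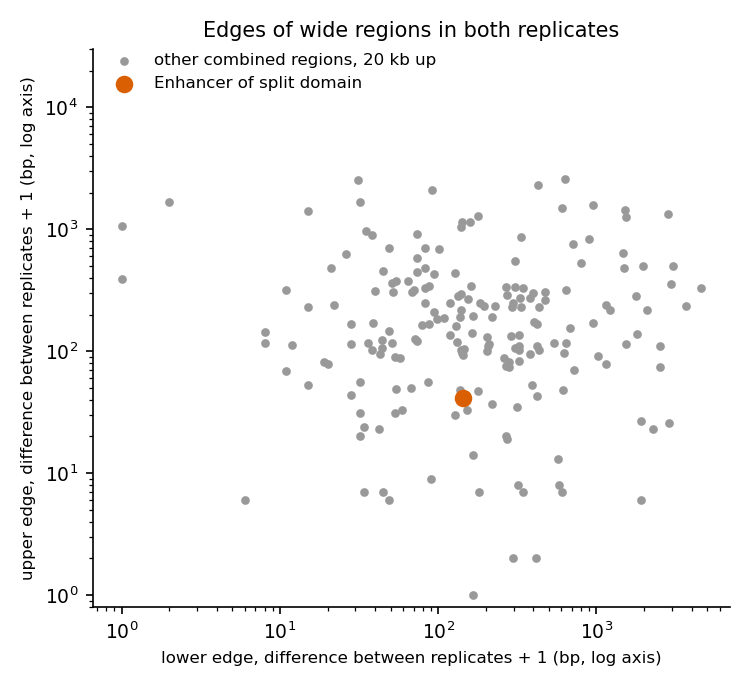
Difference in bp between replicates 1 and 2 at the lower edge (x) and the upper edge (y) of the 194 combined regions of at least 20 kb, on log axes after adding 1 bp. Grey points are other regions, and the orange point, the Enhancer of split domain, lies at 143 bp and 40 bp before 1 was added.

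Breaks in the domain were set beside those of the other wide regions. Of the 194 wide regions, 97 (50.0%) were a single region in replicate 1 and 68 (35.1%) in replicate 2, and 55 were a single region in both. The domain was in 1 piece in replicate 1 and in 2 pieces in replicate 2, so it was not among the 55.

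Gene content was compared with the other regions of 3R as a description. The domain held 13 whole protein-coding genes, the highest count among the 1819 combined regions of that arm, where the next highest was 10. Its count includes the 10 members, a cluster of short genes that defines the locus, so a high count follows in part from the choice. The median was 0 over all regions of 3R and 1 over the 50 of at least 20 kb. Per length it had 2.59 genes per 10 kb, and 4 of the 50 wide regions had more. The regions with 10 genes were shorter. That on 3R from 7033801 to 7053998 had 4.95 genes per 10 kb, among them the ribosomal protein genes RpS25 and RpL3, and that from 19748794 to 19761944 had 7.60, among them Rpt2, a proteasome subunit gene.

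The 3 regions of 3R nearest in width to the domain each held fewer whole genes, as did every other combined region of the arm. The region from 12029401 to 12085811 (56411 bp, score 1.81) held 1 whole gene, mtSSB, and overlapped tara, a Trithorax group gene, and CG31287. The region from 24385263 to 24425483 (40221 bp, score 1.03) held 2, Noa36 and fkh, which encodes the forkhead transcription factor of gut and salivary gland. The region from 657847 to 695378 (37532 bp, score 1.38) held none and overlapped only opa, the pair-rule gene odd-paired. Each was broken into 2 or 3 regions in either replicate, and replicate regions covered 94.1 to 97.3% of them. Likeness here means width alone, over 1819 combined regions.

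The mark was then followed over other genes of the Notch pathway. Of a list of 39 such genes, 13 lie on 3R, and 3 of these (Kaz-m1, E(spl)m2-BFM and gro) are in the window. All of the other 10 overlapped an H3K4me1 region in each list. The list was written with earlier results of these data known. Overlap of at least 1 bp held for 68.3% of the protein-coding genes of 3R in the combined list, 65.5% in replicate 1 and 63.9% in replicate 2, and long genes meet a region more easily. The median covered share of the 10 genes was 72.4% in replicate 1 and 73.3% in replicate 2, beside 41.4% and 38.1% over all protein-coding genes of 3R. Of the 10, 1 (rumi) lay wholly inside 1 region in the combined list and in replicate 2, and 0 did in replicate 1, beside 26.3%, 22.8% and 23.4% of protein-coding genes in the same order. By this measure the pathway genes were not more often enclosed than other genes of the arm. The shares were not matched for length, however, and long genes fit inside a region less easily. Several of the 10 are long, such as Delta at 23.5 kb and Ser at 22.2 kb, so nothing is read from the contrast.

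Among the ligands, Delta was covered over most of its 23.5 kb, to 77.3% in replicate 1 and 81.7% in replicate 2, and its widest combined region measured 20547 bp with a score of 1.08. Ser, which encodes Serrate, was covered to 34.6% in replicate 1 and 23.6% in replicate 2, so it lay below the median of 3R genes in either library. The mean was 79.5% ± 3.16 for Delta and 29.1% ± 7.77 for Ser (SD, n = 2), a difference larger than the spread between replicates, which with 2 libraries was not tested. Neither ligand gene lay wholly inside 1 region in any list. In the combined list 26.3% of the protein-coding genes of 3R did, and both ligand genes are long.

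Coverage varied among regulators of the ligands and of Notch itself. The medians over all protein-coding genes of 3R, not matched for length, were 41.4% in replicate 1 and 38.1% in replicate 2. neur, which encodes the ligase Neuralized that Bearded family proteins inhibit, was covered to 90.0% and 94.9% in replicates 1 and 2. Its widest combined region, 20663 bp, was also the widest of the 10 genes, with a score of 1.54. spdo, which encodes Sanpodo, a membrane protein needed for Notch signalling in asymmetric divisions, was covered to 91.0% and 91.8%. rumi, the gene of a glucosyltransferase that modifies Notch, reached 98.6% and 100.0%. Tace, a metalloprotease gene, was covered to 86.9% and 80.1%, and Nct, which encodes the gamma-secretase subunit Nicastrin, to 67.6% and 63.4%. krz, the beta-arrestin gene kurtz, was lower at 36.1% and 33.7%.

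Nuclear corepressor genes varied. CtBP, whose product is recruited by Hairless, was covered to 59.4% and 66.5% in replicates 1 and 2, and 1 of its combined regions, 9990 bp wide, had a score of 1.61. H, which encodes Hairless, the adaptor that turns Su(H) into a repressor, was covered to 30.3% and 31.6%. Groucho's gene gro, at 41.6% and 38.8%, owed its coverage to the Enhancer of split domain, the only combined region that overlaps it. Of the 10 pathway genes outside the window, 2 met a combined region of at least 20 kb (Delta and neur), as did 4.84% of the protein-coding genes of 3R, and both are long genes. The widest combined regions of the others measured 2225 to 13173 bp. The locus was chosen by its own region, of 50140 bp, so nothing is read from that contrast.

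**Figure D4:**
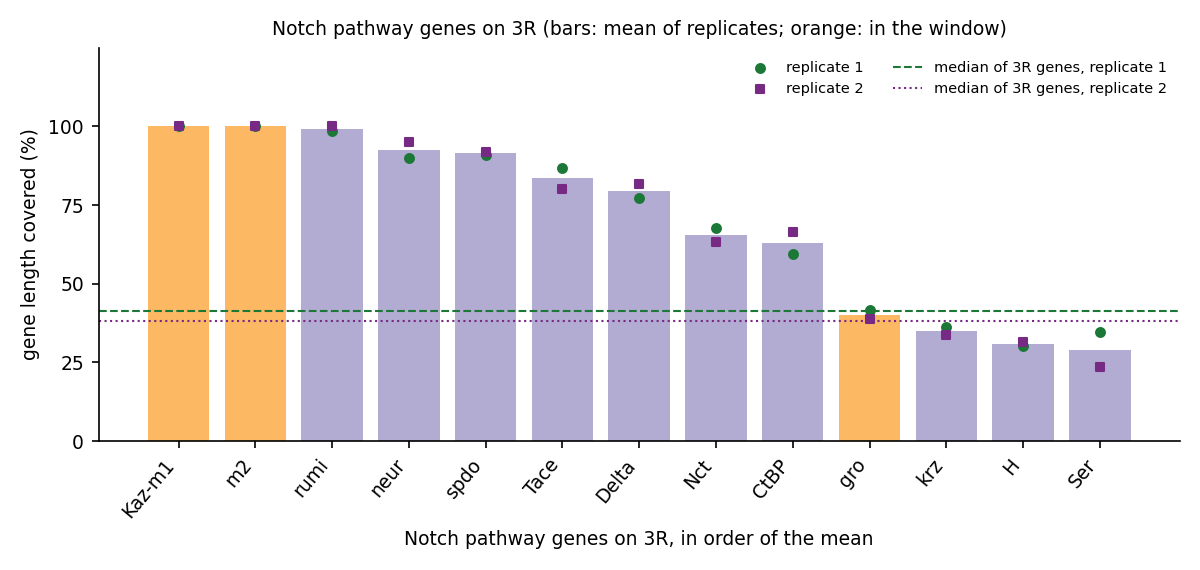
Share of gene length covered by H3K4me1 regions for the 13 Notch pathway genes on 3R, with bars for the mean of both replicates (n = 2), circles and squares for replicates 1 and 2, and orange bars for genes in the window. Lines mark the medians over 3387 protein-coding genes of 3R, 41.4% in replicate 1 and 38.1% in replicate 2, and krz, H and Ser lie below both lines in either replicate.

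Of 16 further listed genes, most of them proneural bHLH genes and their partners, 3 lie on 3R. ato, the proneural gene atonal, was covered to 100.0% in each list by a region that measured 3933 bp in the combined list, with a score of 1.18. pros, which encodes the neural differentiation factor Prospero, was covered to 41.9% and 42.6% of its 79.1 kb in replicates 1 and 2, by 6 separate combined regions. nau, the fly homologue of the muscle factor MyoD, was covered to 41.9% in replicate 1 and to 0.0% in replicate 2. In the combined list it was covered to 79.3% by 2 regions, the wider with a score of 0.38. A region missing from the list of replicate 2 does not show that the mark was absent there. The combined regions at ato and pros were narrower than the domain over the complex. That domain had rank 3 by width among the 1819 combined regions of 3R, so nothing is read from this contrast.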

How the data were processed

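H3K4me1 ChIP-seq of 2 libraries was analysed from region lists, not from reads. The authors deposited regions of significant enrichment for each replicate and for both combined, on FlyBase release 5 per the file headers, each with a score. The submitters' processing notes name Bowtie 0.12.7, a read aligner. The calling of regions, the threshold, the part played by the input, the pooling of replicates and the handling of reads that map to several places were not given in the sources used here. The last point bears on a family of related genes such as this one and was not tested.

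The scores are taken as log2 values, since differences between the deposited scores are logarithms to base 2 of ratios of whole numbers. A ratio was found for all 8219, 7601 and 7401 scores of the combined list, replicate 1 and replicate 2, with a relative tolerance of 2e-13 and denominators up to 60000. The constant of each list was the one that left the smallest whole numbers in its 120 shortest regions, and the recovered numbers depend on this choice. Read totals of the libraries were not at hand. Intervals are exact Clopper-Pearson intervals at 95%, computed with scipy 1.17.1 in Python 3.11.15.

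Gene positions came from a RefSeq table on release 6 and were moved to release 5 by a constant for 3R, which the choice of the locus prescribed. After moving, the last gene ended at 27894163 of the 27905053 bp of the arm. Ends of protein-coding genes lay in a region more often with this constant (46.9% in replicate 1, 45.3% in replicate 2) than after a displacement by 2 kb either way (43.8% and 43.8%, and 42.4% and 42.1%). The table gives no strand, so the planned count of gene starts was replaced by both gene ends. A planned motif count in promoters and a protein comparison were not made for want of sequence tables. A region belongs to the window or a gene when it overlaps by at least 1 bp. Steps were checked on simulated lists made by the same rules. This tests the computation, and not whether the recovered numbers of the real lists are right. Named genes are the members, all genes of the window, the listed Notch pathway and neural genes on 3R, and the genes of the 3 combined regions nearest in width; genes that only overlap those 3 regions, and RpS25, RpL3 and Rpt2, were named after their values were seen. The members and lists were chosen with earlier results of these data known.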

Additional observations from a re-analysis of the deposited data

How the results depend on the processing

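Of 31 alternatives, 23 left a value within the SD between replicates (covered share) or within 1.5 times (counts), and 8 moved it. Part of this tally was fixed in advance, so it does not measure robustness. Leaving out a replicate cannot shift the covered share by as much as the SD. Joining regions, or asking for only 50% of a gene, cannot lower a member count that is already complete. Nor can moves of 1 kb or 250 bases, since the member nearest to an edge lies 1067 bp from it. The domain ranks 232 and 275 by score in replicates 1 and 2, so keeping the top 50% retains it. Each replicate alone encloses all 10 members, so leaving 1 out changes no member count. The covered share of the window, 79.3%, was 80.9% with gene positions 1 kb higher and 78.7% with positions 1 kb lower. It was 100.0% with no flank, 93.4% with a flank of 5 kb and 74.8% with 20 kb, since the uncovered sequence lies outside the complex. The count of members wholly inside 1 region, and that of members with both ends in a region, stayed at 10 under every alternative run for each. Moving both ends outward by 250 bases, added after the data were seen, was run for the count of ends alone.
The number of regions in the window, a mean of 2.5 per replicate list, was 1.0 with no flank, 1.5 with a flank of 5 kb and 1.5 when 50% of a region had to lie in the window. It was 2.0 without replicate 2 and 3.0 without replicate 1, the difference being the break in gro, and joining regions over gaps of at most 1 kb gave 2.0. The covered share was 79.0 to 79.7% with either replicate left out. Values for whole promoter windows and for motifs in the sequence before the gene start were not run, since strand and sequence were not at hand. No paired analysis was possible because the input libraries that share replicate numbers with the ChIP libraries have no values here. Read depth was not at hand, and the ratios behind the scores do not give it.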

Other observations

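The sequence on either side of the complex carried other kinds of region. Above the domain, 5.33 kb from its edge in the combined list, a region of 10651 bp with a score of 1.28 enclosed 7 whole protein-coding genes: Vps2, an ESCRT-III subunit gene, Cmpk, Sld5, a subunit gene of the GINS replication complex, CG14543, PIG-P, Tcs6 and the ribosomal protein gene RpL34a. PIG-P and Tcs6 have the same position in the gene table. The replicate regions had scores of 1.25 in replicate 1 and 1.34 in replicate 2. Below the domain, 10.2 kb away, a region of 2150 bp with a score of 0.55 overlapped fid and Nf1, and its replicate scores were 0.60 and 0.58.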
